A study of Rattus norvegicus with 3 samples.

Results

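Leukocyte adhesion molecules of the vessel wall were followed in rat brain nuclei through 8 genes out of 30560 features in the gene table. The members are Vcam1, Icam1, Icam2, the selectins Sele and Selp, the chemokine receptor Ackr1, the sialomucin Cd34 and Alcam, each taken by its symbol in that table. Their unique molecular identifiers (UMIs, 1 per captured RNA molecule) were counted in single nuclei of female wild-type Crl:CD(SD) rats, an outbred stock, aged 12 weeks. The rats received an intraperitoneal injection of LPS (lipopolysaccharide, a bacterial cell wall component sensed by Tlr4) at 5 mg/kg, of poly(I:C) (a synthetic double-stranded RNA that stands in for viral RNA) at 12 mg/kg, or of saline, and brains were taken 7 hours later. Nuclei of 4 rats were pooled into 1 library per treatment, so there are 3 libraries, 1 per group, and no replicate. No p-value could be computed, and every interval below is a 95% interval for counting error alone, which covers neither animals nor preparation. Both treatments are set against the same saline library.

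Leukocytes leave the blood in steps. Selectins on the endothelium (Sele, or E-selectin, made on stimulation, and Selp, or P-selectin, stored in Weibel-Palade bodies) slow the cells. The immunoglobulin-family ligands then hold them: Vcam1 binds the integrin of Itga4 and Itgb1, Icam1 binds the beta-2 integrins, and Icam2 is a beta-2 integrin ligand that resting endothelium already carries. Ackr1 binds chemokines on venules without signalling through G proteins, Cd34 is a mucin-like protein of endothelium that can carry L-selectin ligands, and Alcam binds Cd6 on lymphocytes and other Alcam molecules. Alcam also works in neurons, in axon growth and guidance.

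The promoter windows of the members that the results turn on are printed because Vcam1, Icam1 and Sele are textbook targets of NF-kB. RefSeq windows of build GRCr8, from 250 bases before to 50 bases after the annotated start, were found for 5 of the 8 genes (Vcam1, Icam1, Sele, Cd34 and Alcam). Those of Icam2, Selp and Ackr1 are not analysed here, and Cd34 is shown beside the first 3 as a member that was not higher after treatment. Capitals mark matches on either strand to GGNNNTTCC or GGGNNNNCC, a pair of overlapping NF-kB-type patterns, or to GAAANNGAA, the core of an interferon-stimulated response element.
Vcam1, chr2:206742734-206743033, minus strand: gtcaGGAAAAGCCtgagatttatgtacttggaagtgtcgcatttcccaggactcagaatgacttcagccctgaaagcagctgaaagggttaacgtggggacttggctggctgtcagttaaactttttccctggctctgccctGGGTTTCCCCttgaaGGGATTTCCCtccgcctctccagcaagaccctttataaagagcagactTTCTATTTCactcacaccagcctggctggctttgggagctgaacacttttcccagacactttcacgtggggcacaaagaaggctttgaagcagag
Icam1, chr8:27829595-27829894, plus strand: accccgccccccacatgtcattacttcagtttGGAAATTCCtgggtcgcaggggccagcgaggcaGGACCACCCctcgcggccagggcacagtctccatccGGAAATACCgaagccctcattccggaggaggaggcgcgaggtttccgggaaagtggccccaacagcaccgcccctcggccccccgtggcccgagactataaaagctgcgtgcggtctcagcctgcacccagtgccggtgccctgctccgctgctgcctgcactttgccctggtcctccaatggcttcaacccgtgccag
Sele, chr13:78936264-78936563, plus strand: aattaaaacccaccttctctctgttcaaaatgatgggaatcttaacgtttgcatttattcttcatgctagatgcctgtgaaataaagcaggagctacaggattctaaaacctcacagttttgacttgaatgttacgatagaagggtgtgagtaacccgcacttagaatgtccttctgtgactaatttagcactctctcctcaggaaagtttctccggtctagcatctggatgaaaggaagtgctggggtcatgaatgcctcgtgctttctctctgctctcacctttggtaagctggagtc
Cd34, chr13:109008536-109008835, plus strand: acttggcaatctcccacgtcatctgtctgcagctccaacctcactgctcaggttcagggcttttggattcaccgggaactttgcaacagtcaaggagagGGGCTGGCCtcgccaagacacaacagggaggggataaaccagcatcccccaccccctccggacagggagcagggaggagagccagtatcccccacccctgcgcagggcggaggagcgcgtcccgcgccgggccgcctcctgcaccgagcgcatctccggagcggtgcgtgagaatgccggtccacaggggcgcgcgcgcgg

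Matches are placed by their first base, with 0 at the annotated start. The Vcam1 window held a cluster of NF-kB-type matches that began between positions -108 and -92, another at -246, and 1 match to the interferon pattern at -45. The Icam1 window held GGNNNTTCC at -218 and -149 and GGGNNNNCC at -185. The Sele window held none of these letters, which says only that they are not in this window. Cd34 had 1 match to GGGNNNNCC, at -151, and Alcam had matches to the same pattern at -216, -215 and -79. Of all 33469 windows in the table, 18.3% held GGNNNTTCC, 42.1% held GGGNNNNCC and 9.71% held GAAANNGAA, and the fourth pattern searched, the AP-1-type TGANTCA, was in 7.33% of windows and in none of these 5. A match is a description of letters, not of binding.

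The LPS, poly(I:C) and saline libraries held 11211, 15001 and 25435 barcodes with 29763787, 21340578 and 35532360 UMIs, and medians of 2436, 1264 and 1165 UMIs per barcode. Between 247 and 550 barcode sequences were shared by a pair of libraries. Nuclei were sorted into classes by UMIs of marker genes that are not members, and a class is called "-like" since it rests on those markers alone. This gave 164, 168 and 390 endothelial-like nuclei, with median depths of 929.5, 681.5 and 799 UMIs, in which each of the 10 endothelial markers found in the table was present (9677, 7479 and 8163 CPM in sum, where CPM is UMIs per 1000000 UMIs of the class or library). The 10 genes highest in these nuclei over all others included 4 endothelial markers in the poly(I:C) library and 4 in the saline library. In the LPS library the top 10 held none of them and included Sox17 and Mmrn2 as well as the immune genes S100a9, Irf7 and Gimap5. The endothelial markers formed the gate, so their presence and rank in these nuclei follow partly from it and are no separate check. Barcodes in no class made up 13.8%, 32.4% and 36.0% of the libraries.

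Summed over all barcodes, Vcam1, Icam1, Sele and Selp were higher after LPS than after saline, and Icam2 was lower. After LPS 4 of the 8 members were at least 2-fold higher and 1 was at least 2-fold lower, against 3.24% and 2.85% of 17539 genes with at least 10 UMIs in the 2 libraries. After poly(I:C) 3 of 7 were at least 2-fold higher and 1 lower, against 2.87% and 4.37% of genes, with Selp under the minimum. Between LPS and poly(I:C), 2 of 8 were at least 2-fold higher and 0 lower, against 3.78% and 2.18% of genes. In such whole-library sums, fewer cells of a type and less RNA per cell cannot be told apart.

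Vcam1 had 141 UMIs after LPS (4.74 CPM), 84 after poly(I:C) (3.94 CPM) and 21 after saline (0.591 CPM). This was 8.02-fold higher after LPS (5.05 to 13.4) and 6.66-fold higher after poly(I:C) (4.09 to 11.3) than after saline, and the 2 treated libraries did not differ beyond counting error (LPS over poly(I:C) 1.20, 0.912 to 1.60). Icam1 had 64, 15 and 11 UMIs after LPS, poly(I:C) and saline. It was 6.95-fold higher after LPS (3.63 to 14.6), while the poly(I:C) ratio of 2.27 had an interval that reached below 1 (0.974 to 5.46). LPS stood 3.06-fold above poly(I:C) for Icam1 (1.72 to 5.78).

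Sele had 34, 7 and 5 UMIs in the LPS, poly(I:C) and saline libraries. It was 8.12-fold higher after LPS than after saline (3.16 to 26.6) and 3.48-fold higher than after poly(I:C) (1.52 to 9.31), and the poly(I:C) ratio to saline, 2.33 (0.637 to 9.31), was not separable from 1. Selp had 10, 7 and 2 UMIs and ratios to saline of 5.97 (1.27 to 56.0) after LPS and 5.83 (1.11 to 57.5) after poly(I:C). Both selectins were thus rare, and their folds rest on few saline molecules.

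Icam2 went the other way. It had 30 UMIs after LPS and 13 after poly(I:C), against 103 after saline, which gave ratios of 0.348 (0.223 to 0.527) and 0.210 (0.108 to 0.375). Ackr1 had 96, 59 and 78 UMIs, and only the LPS ratio, 1.47 (1.08 to 2.01), had an interval above 1. Cd34 had 423, 275 and 550 UMIs, with ratios to saline of 0.918 (0.807 to 1.04) after LPS and 0.832 (0.718 to 0.964) after poly(I:C). Alcam had 15812, 10735 and 17910 UMIs and was nearly level, at 1.05 (1.03 to 1.08) after LPS and 0.998 (0.974 to 1.02) after poly(I:C). The last 3 genes were also found in neurons, described further on.

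**Figure D1:**
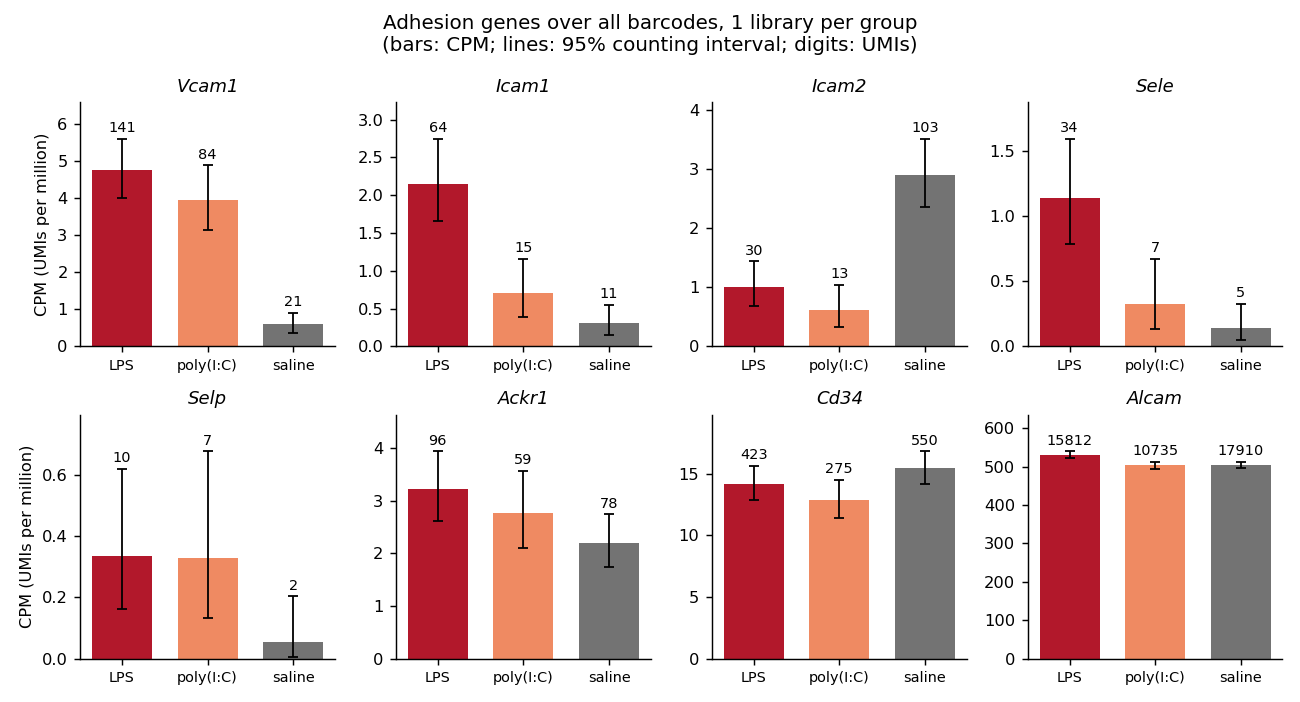
CPM (y axis) of each member over all barcodes of the LPS, poly(I:C) and saline libraries; bars are CPM, lines are 95% Poisson counting intervals and the digits are UMIs. Vcam1 was high in both treated libraries (4.74 and 3.94 CPM, against 0.591 CPM after saline), Icam1 and Sele stood out after LPS, and Icam2 was highest after saline.

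In endothelial-like nuclei members differed from saline in both directions. Vcam1, Icam1, Sele and Ackr1 were at least 2-fold higher after LPS than after saline and Cd34 and Alcam at least 2-fold lower, so that 4 of 7 members with at least 10 UMIs were higher and 2 lower, against 12.2% and 15.8% of 8739 genes. After poly(I:C) only Vcam1 of 4 testable members was higher and Icam2, Cd34 and Alcam were lower, against 9.49% and 21.0% of genes. Between LPS and poly(I:C) 5 of 7 were at least 2-fold higher and 0 lower, against 15.9% and 10.1% of genes. The 5 were Icam1, Icam2, Sele, Ackr1 and Cd34. Of these, Icam1 (3.06, 0.825 to 16.9) and Cd34 (6.88, 0.953 to 301.5) were not separable from 1. Icam2, Sele and Cd34 each had only 1 UMI after poly(I:C). Genes with at least 10 UMIs in each sum had a median LPS to saline ratio of 1.09 (0.12 on the log2 scale), and values relative to it follow for the members near the 2-fold line.

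Vcam1 had 40 UMIs in 21 of 164 LPS nuclei (219 CPM) and 25 UMIs in 18 of 168 poly(I:C) nuclei (179 CPM), against 3 UMIs in 3 of 390 saline nuclei (7.83 CPM). The ratios to saline were 27.9 (8.89 to 141) and 22.8 (6.97 to 118). LPS and poly(I:C) did not differ beyond counting error for Vcam1 (1.22, 0.724 to 2.10), although this ratio was 2.17 with 5 endothelial markers alone as the gate and 3.51 without nuclei holding a mural or fibroblast marker UMI. The Vcam1 ratio after LPS was 4.78 in the 18 LPS and 44 saline nuclei with no UMI of a mural or fibroblast marker, and 50.6 when 5 endothelial markers alone formed the gate.

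Icam1 had 12 UMIs after LPS, 3 after poly(I:C) and 2 after saline, or 65.6, 21.4 and 5.22 CPM. The LPS ratio to saline was 12.6 (2.80 to 116) and the poly(I:C) ratio was 4.11 (0.471 to 49.2), from too few molecules to separate it from 1. Sele had 16 UMIs in 10 LPS nuclei, 1 UMI after poly(I:C) and 0 after saline. Taking 3 counts in place of the 0, Sele was at least 11.2-fold higher after LPS than after saline (the counting interval against 0 itself starts at 8.07), and it was 12.2-fold higher than after poly(I:C) (1.90 to 513). Here and below, a ratio against 0 UMIs given as at least or at most is such a floor value. It leaves out the counting error of the other sum, so the interval can reach past it. Selp had 4, 3 and 0 UMIs, under the minimum for a call in each comparison, and the interval of its LPS ratio to saline starts at 1.38.

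Ackr1 had 25 UMIs in 13 LPS nuclei (137 CPM), 4 UMIs in 3 poly(I:C) nuclei (28.6 CPM) and 0 UMIs in 390 saline nuclei, which allows up to 0.769% of nuclei with an Ackr1 UMI and does not limit the share that expresses the gene. With the floor of 3 counts it was at least 17.5-fold higher after LPS than after saline (interval from 13.2). The 4 UMIs after poly(I:C) were under the minimum of 10 for a call, with an interval of the ratio to saline from 1.81. LPS exceeded poly(I:C) 4.78-fold (1.65 to 18.9). Without nuclei holding a Syt1 UMI the LPS bounds over saline were at least 7.10-fold for both Ackr1 and Sele (intervals from 5.05). The whole-library sum of Ackr1 had shown little of this, since most of its molecules lay outside endothelial-like nuclei: 26.0% of LPS, 6.78% of poly(I:C) and 0% of saline Ackr1 UMIs were inside them.

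The members that saline endothelial-like nuclei already carried, Icam2, Cd34 and Alcam, had lower levels after treatment, though not each beyond counting error. Icam2 had 16 UMIs after LPS (87.4 CPM) and 1 after poly(I:C) (7.15 CPM), against 50 after saline (131 CPM). The LPS ratio, 0.670 (0.356 to 1.20), was not separable from 1 and was 3.58 without nuclei holding a mural or fibroblast marker UMI, whereas the poly(I:C) ratio was 0.0548 (0.00136 to 0.320), and LPS stood 12.2-fold above poly(I:C) (1.90 to 513). Without nuclei holding a UMI of Syt1, a neuronal gene, the Icam2 ratio of LPS to poly(I:C) was at least 1.74 (interval from 1.15), and the poly(I:C) ratio to saline was at most 0.271 (interval to 0.355). Icam2 overlaps Prr29, and Cd34 overlaps LOC102550245, in the GRCr8 annotation, so reads of those pairs may not be fully separable.

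Cd34 had 9 UMIs after LPS (49.2 CPM) and 1 after poly(I:C) (7.15 CPM), against 42 after saline (110 CPM). Its ratios to saline were 0.449 (0.192 to 0.935) and 0.0652 (0.00161 to 0.384). The LPS value was 0.412 relative to the median gene and 0.721 with 5 endothelial markers alone as the gate, so the 2-fold call did not hold there. Without nuclei that carried a mural or fibroblast marker, Cd34 after poly(I:C) had only an upper bound of 1.02. Alcam had 102 UMIs after LPS (557 CPM) and 63 after poly(I:C) (450 CPM), against 511 after saline (1334 CPM). Its ratios were 0.418 (0.335 to 0.518) and 0.338 (0.256 to 0.439), or 0.384 and 0.327 relative to the median gene, and 0.888 and 0.195 without nuclei holding a mural or fibroblast marker UMI. In saline nuclei Alcam was 2.78-fold higher in endothelial-like nuclei than in neurons (2.54 to 3.04), but the same contrast was 1.07 (0.872 to 1.30) after LPS and 0.928 (0.713 to 1.19) after poly(I:C).

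**Figure D2:**
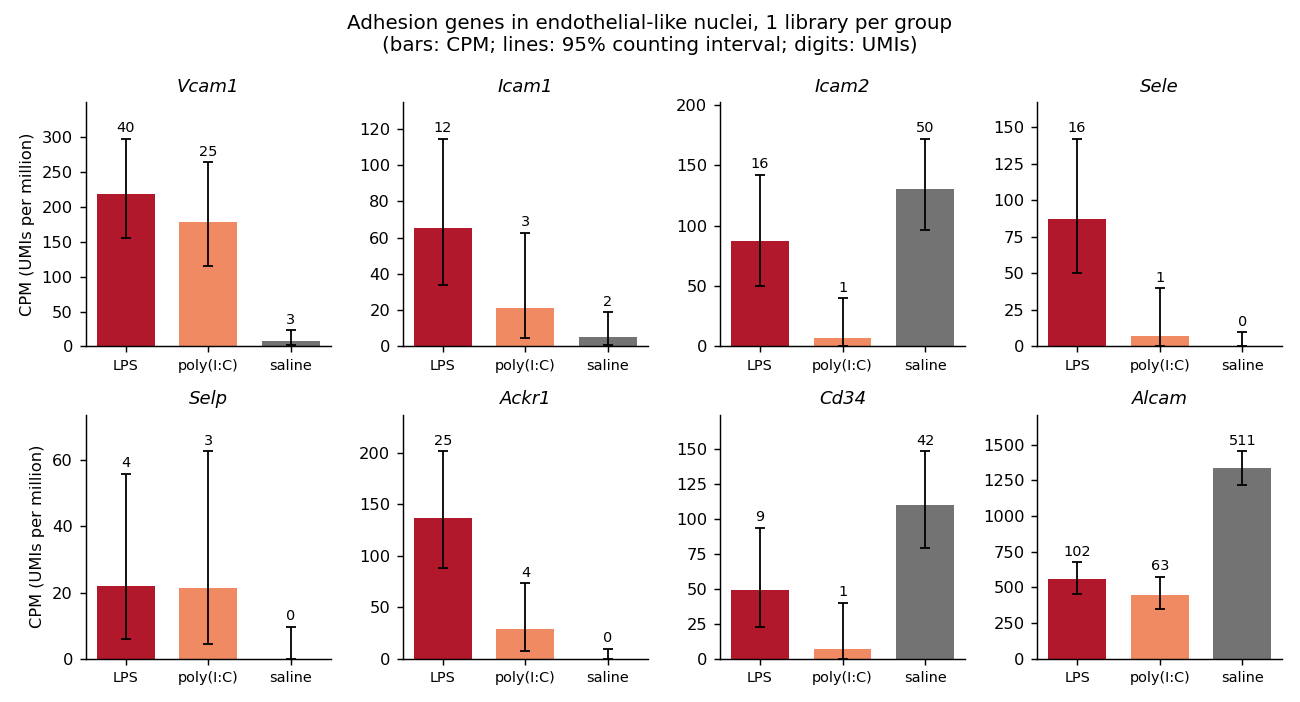
CPM (y axis) of each member in 164 LPS, 168 poly(I:C) and 390 saline endothelial-like nuclei; bars are CPM, lines are 95% Poisson counting intervals and the digits are UMIs. Vcam1 was at 219 and 179 CPM in the treated libraries and 7.83 CPM after saline, Sele and Ackr1 were seen mostly after LPS, and Icam2, Cd34 and Alcam were highest after saline.

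Seen per nucleus, 40 of 164 LPS nuclei (24.4%, 18.0 to 31.7) and 23 of 168 poly(I:C) nuclei (13.7%, 8.88 to 19.8) held a UMI of Vcam1, Icam1, Sele, Selp or Ackr1, against 4 of 390 saline nuclei (1.03%, 0.280 to 2.60). This set of 5 was chosen after their values were seen. In neurons, which should lack most of these genes, the shares were 1.20%, 0.832% and 0.499% at median depths of 2939, 1513 and 1503 UMIs and with Ackr1, at 57 UMIs, giving most of the saline neuronal molecules. Ependymal-like nuclei stood at 24.4%, 8.33% and 0%, and astrocyte-like nuclei at 4.94%, 0% and 3.49%, so a share like the endothelial one was also seen in LPS ependymal-like nuclei. The 4 saline endothelial-like nuclei held 3 Vcam1 and 2 Icam1 UMIs, and Vcam1 there stood 22.1-fold above saline neurons (3.84 to 88.4). Among the LPS nuclei 14 carried at least 2 of the 5 genes, against 4 poly(I:C) and 1 saline nuclei. The pair seen most was Vcam1 with Ackr1 (5 LPS nuclei), then Icam1 with Sele (4). Of the 40 LPS nuclei with any of the 5, 3 also held Icam2 or Cd34, and 0 of the 23 poly(I:C) nuclei did. Among LPS nuclei with none of the 5, 18 held Icam2 or Cd34 and 106 did not. After poly(I:C) 2 such nuclei did and 143 did not, counts too sparse to read an exclusion from. After each nucleus was thinned to 1000 UMIs, Vcam1 was found in 17.1% of the 70 LPS nuclei deep enough, in 24.4% of 41 poly(I:C) nuclei and in 0.752% of 133 saline nuclei, against 12.8%, 10.7% and 0.769% unthinned; 94, 127 and 257 shallower nuclei were left out.

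Along the vessel tree, most LPS molecules of Ackr1 and Vcam1 lay in nuclei with venous markers. The 55 LPS nuclei with venous markers and no capillary or arterial ones held 21 of the 25 Ackr1 UMIs (362 CPM), 24 of 40 Vcam1 UMIs (413 CPM), 9 of 16 Sele UMIs and all 4 Selp UMIs. In 46 poly(I:C) nuclei of that kind Ackr1 had 3 of 4 UMIs and Vcam1 5 of 25. With Il1r1 and Lrg1 left out of the venous markers, Ackr1 and Vcam1 both stood at 370 CPM in 48 LPS nuclei. That shorter list kept Tmem252, at 355 CPM after LPS and 20.9 CPM after saline, and Vwf, at 732 and 355 CPM. The shorter list thus still holds markers that differed between libraries. Only 6 saline nuclei had venous markers alone, against 178 with capillary markers alone, while the LPS library had 12 capillary nuclei. In those 12, Vcam1 had 1 UMI (96.0 CPM, 2.43 to 535) and Ackr1 had 0, with intervals that overlap the venous ones. The 94 LPS nuclei in no segment stood at 135 CPM for Vcam1 (75.5 to 222) and 36.0 CPM for Ackr1 (9.80 to 92.1). The segment markers themselves differed between libraries: Lrg1 stood at 415 CPM after LPS, 257 after poly(I:C) and 33.9 after saline, and Tfrc at 43.7, 21.4 and 459 CPM. Segments are therefore described within a library and not compared between treatments.

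Markers of other cells were present in the endothelial-like nuclei. All 9 mural markers found were detected in each library, at 3377, 2874 and 3755 CPM in sum after LPS, poly(I:C) and saline, with Rgs5 giving most of it. Of 10 neutrophil markers 8, 6 and 2 were detected, at 1044, 622 and 5.22 CPM, and they lay in 7 LPS, 9 poly(I:C) and 2 saline nuclei. In the nuclei without a neutrophil marker UMI, each member ratio stayed inside its counting interval. Neuronal markers stood at 601, 1208 and 1297 CPM, hemoglobin genes at 2606, 1845 and 3518 CPM, and T or NK cell markers at 0, 0 and 15.7 CPM. Fibroblast markers stood at 300.5, 265 and 290 CPM. The part of mural and neuronal RNA in the member ratios was not tested beyond the gates named above.

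The wider trafficking pathway was read from a list of 51 genes, of which 47 were in the table. In endothelial-like nuclei 29 of them had at least 10 UMIs in the LPS and saline sums, of which 8 were at least 2-fold higher and 5 lower, with a median log2 ratio of 0.42 beside -0.07 over all genes, of which 12.2% were higher and 15.8% lower. After poly(I:C) 6 of 28 were at least 2-fold higher and 9 lower, with a median of 0.15 beside -0.26 over all genes, of which 9.49% were higher and 21.0% lower. The junction gene Cdh5, VE-cadherin, was 3.32-fold higher after LPS (2.44 to 4.54) and 5.28-fold higher after poly(I:C) (3.93 to 7.16). Cdh5 and Emcn were also among the gate markers, so their levels partly follow from how the nuclei were chosen.

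Other junction and membrane genes were also higher. Jam2, a junctional adhesion molecule, was 2.53-fold higher after LPS (1.97 to 3.25), and Esam, which sits at endothelial junctions, was 2.39-fold higher after LPS (1.83 to 3.13) and 2.12-fold higher after poly(I:C) (1.57 to 2.85). Cx3cl1, a membrane-bound chemokine, had 14 UMIs after LPS and 7 after saline (4.19-fold, 1.58 to 12.3). Vwf, the cargo of Weibel-Palade bodies, was 2.06-fold higher after LPS (1.61 to 2.64). Cd47, a ligand of Sirpa, was 2.09-fold higher after LPS (1.34 to 3.27) and 4.40-fold higher after poly(I:C) (2.96 to 6.59), and LPS stood at 0.476 of poly(I:C) (0.318 to 0.707). Adam17, a protease that sheds membrane proteins, was 2.40-fold higher after LPS (1.48 to 3.92) and 3.30-fold higher after poly(I:C) (2.05 to 5.37). Relative to the median gene, the folds of Cd47 and Vwf after LPS fall to under 2.

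Genes of the list that were lower included Bsg, or basigin, an abundant glycoprotein of brain endothelium, at 902 CPM after LPS and 551 CPM after poly(I:C), against 3304 CPM after saline. Its ratios were 0.273 (0.231 to 0.321) and 0.167 (0.131 to 0.210). Emcn, endomucin, which opposes leukocyte adhesion, had ratios of 0.393 (0.259 to 0.580) after LPS and 0.365 (0.223 to 0.572) after poly(I:C). Pecam1, a junction protein used in transmigration, was 2-fold lower only after poly(I:C), at 222 CPM against 480 CPM after saline (0.462, 0.305 to 0.678), and LPS stood 2.96-fold above poly(I:C) (1.98 to 4.54). F11r, a junctional adhesion molecule, was likewise lower after poly(I:C) than after saline (0.304, 0.0591 to 0.989) and 4.58-fold higher after LPS than after poly(I:C) (1.34 to 24.3). After poly(I:C), Rdx, which links membrane proteins to actin, and Adam10, another shedding protease, had ratios of 0.398 (0.164 to 0.842) and 0.484 (0.323 to 0.703). Gcnt1, a glycosyltransferase used to build selectin ligands, had 0 UMIs after LPS and after poly(I:C), against 20 after saline, or at most 0.314 and at most 0.411 of the saline level (intervals to 0.424 and 0.555). Ncam1, an adhesion molecule common in neurons, was lower after LPS (0.415, 0.247 to 0.667). Neuronal markers in the same nuclei were also lower, at 601 CPM after LPS and 1297 CPM after saline. The part of neuronal RNA in the Ncam1 ratio was not tested.

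Outside the endothelium, Vcam1 was found in ependymal-like nuclei, the class of ciliated cells that line the ventricles. It had 30 UMIs in 90 LPS nuclei (335 CPM), carried by 18 of them, and 2 UMIs in 24 poly(I:C) nuclei (132 CPM), against 0 UMIs in 66 saline nuclei. Vcam1 was at least 6.48-fold higher after LPS than after saline (interval from 4.95). Of 2 members with at least 10 UMIs, 1 was at least 2-fold higher and 0 lower, against 14.6% and 9.87% of genes. In the 59 LPS and 31 saline nuclei with no Syt1 UMI the Vcam1 bound was at least 2.22-fold (interval from 1.61), at 343 CPM after LPS. In the 82 LPS ependymal-like nuclei with no endothelial marker UMI, Vcam1 had 25 UMIs (354 CPM), against 0 in 61 such saline nuclei. Icam1 had 7 UMIs in LPS ependymal-like nuclei (78.2 CPM) and 0 in the poly(I:C) and saline ones. Sele, Selp, Ackr1 and Icam2 had 0 UMIs in the ependymal-like nuclei of each library. Endothelial markers there summed to 89.3, 132 and 121 CPM after LPS, poly(I:C) and saline. Alcam had 18 UMIs after LPS (201 CPM), against 23 after saline (397 CPM), a ratio of 0.507 (0.258 to 0.982).

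Astrocyte-like nuclei held 11 Vcam1 UMIs in 243 LPS nuclei (50.5 CPM), 0 in 46 poly(I:C) nuclei and 1 in 86 saline nuclei, and the LPS ratio to saline of 3.37 (0.490 to 145) was not separable from 1. Oligodendrocyte-like nuclei held few Vcam1 UMIs, with 3 in 1011 LPS nuclei (2.90 CPM) and 6 in 380 poly(I:C) nuclei (18.0 CPM), against 0 in 710 saline nuclei. These sums were under the minimum of 10 UMIs for a call in each comparison, and free RNA was not separated from expression there. Neurons gave 23, 29 and 9 Vcam1 UMIs in 7806, 9369 and 14824 nuclei, or 0.910, 1.84 and 0.355 CPM. The neuronal poly(I:C) ratio to saline was 5.19 (2.39 to 12.5) and the LPS ratio 2.57 (1.14 to 6.30), at levels under 2 CPM where free RNA was not separated from expression.

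**Figure D3:**
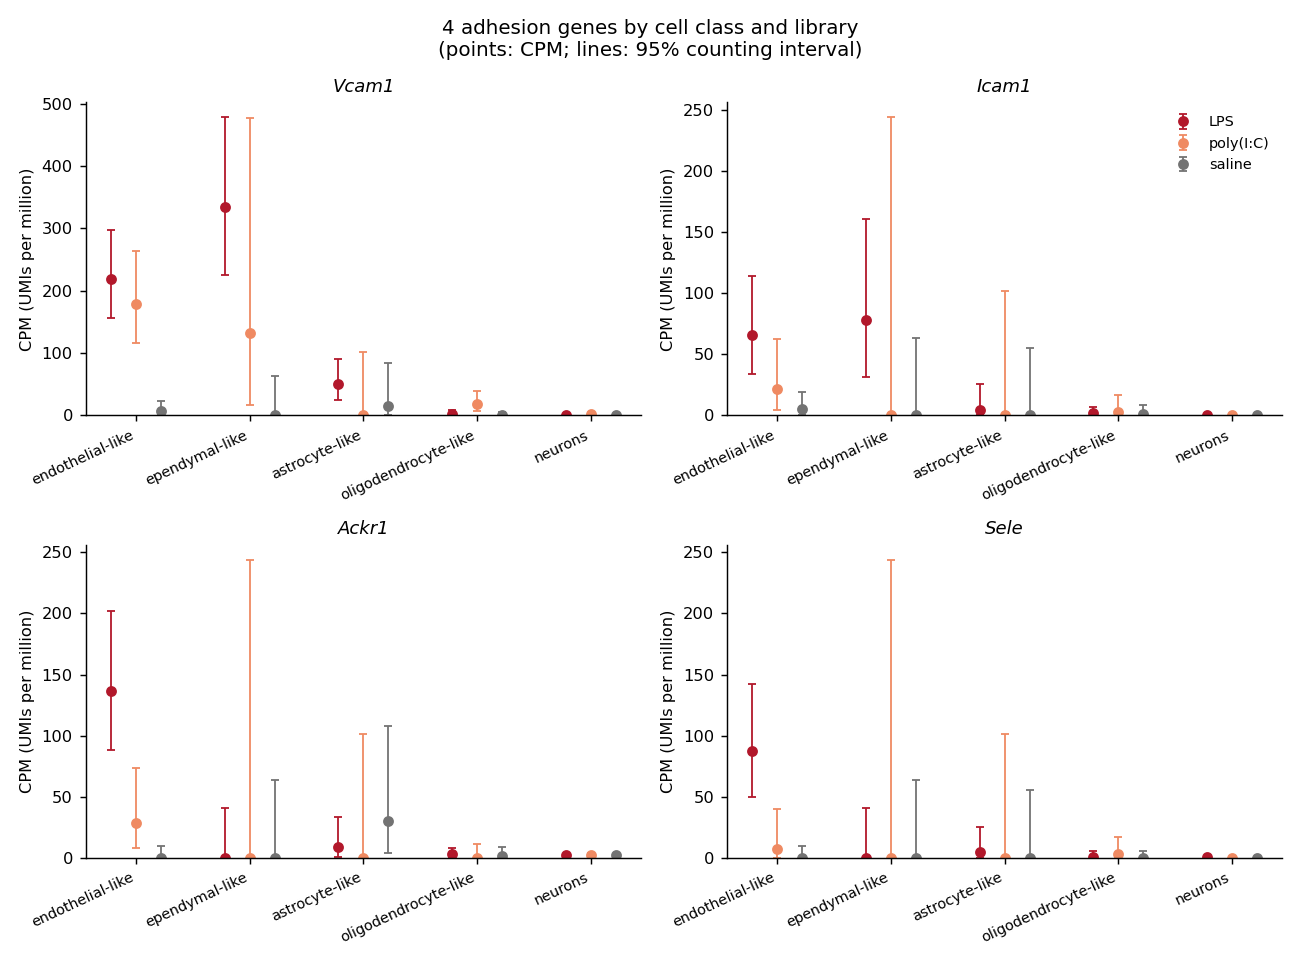
CPM (y axis) of Vcam1, Icam1, Ackr1 and Sele in endothelial-like, ependymal-like, astrocyte-like and oligodendrocyte-like nuclei and in all neurons (x axis) of the LPS, poly(I:C) and saline libraries; points are CPM and lines are 95% Poisson counting intervals. Vcam1 was highest in LPS ependymal-like nuclei (335 CPM) and in treated endothelial-like nuclei, whereas Ackr1 and Sele were seen mainly in LPS endothelial-like nuclei.

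Neurons held a low level of Ackr1 in each library, with 53, 42 and 57 UMIs or 2.10, 2.67 and 2.25 CPM after LPS, poly(I:C) and saline. These levels did not differ between libraries beyond their counting intervals, and the saline endothelial-like nuclei had 0 Ackr1 UMIs beside them. Icam1 had 15, 5 and 3 UMIs in neurons, Sele 10, 3 and 3, and Icam2 2, 2 and 16. Of 7 members with at least 10 UMIs in neurons, 3 were at least 2-fold higher after LPS than after saline and 1 lower, against 2.32% and 2.71% of genes. After poly(I:C) 1 of 5 was at least 2-fold higher than after saline and 1 lower, against 2.35% and 3.78% of genes. The genes called higher were Vcam1 in both comparisons, with 23, 29 and 9 UMIs, and Icam1 and Sele after LPS. Icam2 was the lower one in both. At such low counts free RNA and doublets were not separated from expression in neurons.

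Cd34 was carried mostly by neurons in these libraries, with 395, 242 and 421 UMIs, although its level was higher in endothelial-like than in neuronal nuclei after saline (6.60-fold, 4.69 to 9.08) and after LPS (3.15-fold, 1.43 to 6.03). Excitatory neurons had 297, 111 and 199 Cd34 UMIs (21.6, 18.8 and 21.5 CPM), while inhibitory neurons had 8, 0 and 5 UMIs and striatal projection-like neurons 9, 0 and 3. Within excitatory neurons the upper layer-like nuclei, marked by Cux2, Cux1 and Calb1, stood highest. They held 119 Cd34 UMIs in 647 LPS nuclei (50.5 CPM, 41.8 to 60.4), 30 in 417 poly(I:C) nuclei (35.9 CPM, 24.2 to 51.3) and 42 in 478 saline nuclei (42.7 CPM, 30.8 to 57.8). Layer 6 corticothalamic-like nuclei stood at 13.4, 14.2 and 15.6 CPM and thalamic-like nuclei at 7.03, 4.02 and 8.27 CPM. Middle layer-like nuclei held 2, 0 and 5 Cd34 UMIs (8.87, 0 and 31.9 CPM). Deep telencephalic-like nuclei, marked by Ntng2, Rxfp1 and Nr4a2, held 3, 1 and 1 (32.4, 19.0 and 15.9 CPM). Except for middle layer-like nuclei after LPS, the intervals of these small groups overlapped those of upper layer-like nuclei.

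Against the other neurons of the same library, upper layer-like nuclei had 4.19-fold more Cd34 after LPS (3.35 to 5.21), 2.53-fold more after poly(I:C) (1.66 to 3.71) and 2.75-fold more after saline (1.95 to 3.79). The contrast was thus present in each of the 3 libraries, which hold different rats. Across treatments, Cd34 in upper layer-like nuclei had overlapping intervals. In the neurons outside that group Cd34 had 276, 212 and 379 UMIs, and the LPS level was lower than the saline level (0.775, 0.661 to 0.907). The gate needs 2 distinct markers and took 647 LPS and 478 saline nuclei, at median neuronal depths of 2939 and 1503 UMIs. How far depth and gate shaped this ratio and the larger LPS contrast was not tested. Over all excitatory neurons, Cd34 levels after LPS and saline were close. With the subtype gate set to at least 4 marker UMIs, the poly(I:C) upper layer-like level was 58.7 CPM.

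Alcam was found throughout the classes. In neurons it stood at 520 CPM after LPS, 485 CPM after poly(I:C) and 480 CPM after saline, with a UMI in 58.6%, 42.7% and 43.4% of nuclei at median depths of 2939, 1513 and 1503 UMIs. Striatal projection-like neurons had 817, 888 and 737 CPM. These were 1.64-fold (1.55 to 1.73), 1.91-fold (1.76 to 2.07) and 1.57-fold (1.46 to 1.69) above the other neurons of the same library. Middle layer-like neurons, marked by Rorb, Rspo1 and Whrn, stood lowest, with 26 UMIs in 63 LPS nuclei (115 CPM), 7 in 50 poly(I:C) nuclei (76.2 CPM) and 45 in 72 saline nuclei (287 CPM). They were at 0.220 (0.144 to 0.323), 0.156 (0.0628 to 0.322) and 0.597 (0.435 to 0.7995) of the level in the other neurons.

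Alcam differed from saline in opposite directions between neuron groups. Middle layer-like neurons had lower Alcam after LPS (0.402, 0.238 to 0.666) and after poly(I:C) (0.266, 0.101 to 0.593) than after saline. These intervals take UMIs as independent, although 1 middle layer-like nucleus held up to 5 of them. The share of such nuclei with an Alcam UMI was 20.6% after LPS (11.5 to 32.7), 12.0% after poly(I:C) (4.53 to 24.3) and 26.4% after saline (16.7 to 38.1). These shares had overlapping intervals. Thalamic-like neurons were lower after LPS (0.752, 0.654 to 0.865), and layer 6 corticothalamic-like neurons after poly(I:C) (0.896, 0.819 to 0.980). Inhibitory neurons were higher, at 547 CPM after LPS and 532 CPM after poly(I:C), against 409 CPM after saline (1.34, 1.20 to 1.49, and 1.30, 1.13 to 1.49). The inhibitory class took 6.87%, 2.87% and 2.62% of LPS, poly(I:C) and saline barcodes, at median depths of 2580, 1453 and 1661 UMIs. How far gate and depth shaped the neuronal Alcam ratios was not tested. Fast-spiking interneuron-like nuclei took the same direction, with ratios of 1.45 (1.23 to 1.72) and 1.31 (1.05 to 1.63), and so did Vip or Adarb2 interneuron-like nuclei after LPS (1.35, 1.05 to 1.73). Sst interneuron-like nuclei did not, at 0.712 (0.402 to 1.31) after LPS and 0.737 (0.346 to 1.55) after poly(I:C), neither separable from 1. Striatal projection-like neurons were 1.11-fold (1.01 to 1.21) and 1.20-fold (1.08 to 1.34) higher. None of these neuronal shifts except the middle layer-like ones reached 2-fold.

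**Figure D4:**
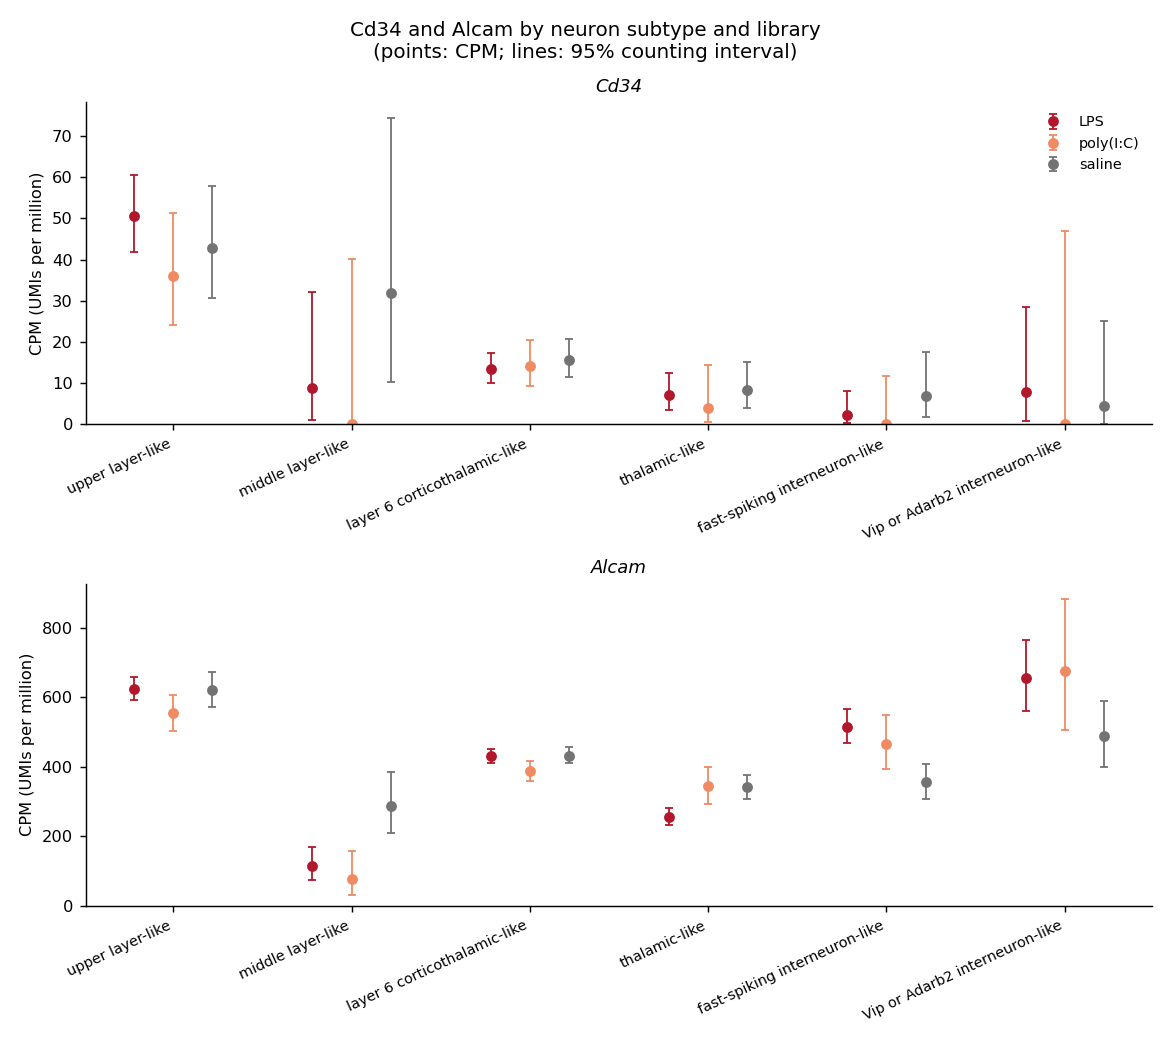
CPM (y axis) of Cd34 (top) and Alcam (bottom) in neuron subtypes with at least 50 nuclei in each library (x axis), for the LPS, poly(I:C) and saline libraries; points are CPM and lines are 95% Poisson counting intervals. Cd34 was highest in upper layer-like nuclei of each library (50.5, 35.9 and 42.7 CPM) and Alcam was lowest in middle layer-like nuclei. For Cd34 the middle layer-like interval overlapped the upper layer-like one after poly(I:C) and after saline.

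Among glia, Alcam was high in oligodendrocyte precursor-like nuclei (988, 1029 and 1020 CPM) with no difference beyond counting error, and astrocyte-like (611, 605 and 719 CPM) and oligodendrocyte-like nuclei (522, 591 and 502 CPM) had overlapping intervals across treatments. Fibroblast-like nuclei were few (11, 5 and 10) but held 30, 5 and 22 Alcam UMIs.

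The genes whose levels followed the members most closely were ranked over 28 sums of a class in a library with at least 50 nuclei, among 13817 genes with at least 100 UMIs. The points share libraries, so these Pearson correlations of log2(CPM + 10) are descriptions only. For Vcam1 they were Relb (0.92), Irf1 (0.90) and Irgm (0.90). For Icam2 they were Galnt15 (0.96), the identifier ENSRNOG00000015967 (0.96) and Olfml2a (0.96), and for Ackr1 they were AABR07044759.1 (0.88), Atf5 (0.88) and Tnfrsf22 (0.88). Cd34 was followed by RGD1561648 (0.86), Palmd (0.84) and Esyt2 (0.84), and Alcam by Adgrl3 (0.83), Gsk3b (0.75) and Nacc1 (0.74). Icam1, Sele and Selp had under 100 UMIs in all and were not ranked.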

How the data were processed

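The 3 deposited matrices hold whole-number UMI counts per gene and barcode; the submitters' processing notes name Cell Ranger 7.0.0 and the rat build mRatBN7.2, the 10x 5' kit is named per the labels, and the annotation release is not given in the sources used here. No ambient RNA removal is stated and each deposited barcode was used.

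Counts were summed per library and class and given as CPM of that sum with exact Poisson intervals. Ratios have exact conditional (Clopper-Pearson) 95% intervals and shares exact binomial ones, all for counting error only. Against a sum of 0, a floor of 3 counts over the class gives a bound, which leaves out the counting error of the other sum. A call is a 2-fold ratio among genes with at least 10 UMIs in the 2 libraries together.

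A nucleus joined a non-neuronal class with UMIs of at least 3 distinct markers, more than of any other class, and no fewer marker UMIs than neuronal ones; neurons needed 3 neuronal markers at over 2 times the UMIs of each other list. Neuron subtypes needed 2 distinct markers and the matching transmitter markers in the lead. Of the endothelial and ependymal lists, 10 of 12 markers each were found under these symbols. Segments needed a marker of 1 vessel segment and none of the others.

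The members and lists were chosen with earlier results of these data known. The gate rule was settled after 3 versions had been tried with member UMIs in view, and the transmitter requirement after a version without it. The 5-gene set, the ependymal checks and the alternatives marked as added in the closing section were also chosen after values were seen. All 8 members are named; list genes are named in endothelial-like nuclei where they had at least 20 UMIs, a ratio 2-fold from 1 and an interval excluding 1, up to 8 in each direction.

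Doublets were kept in the main values. Scrublet (scanpy 1.11.5) at its default expected rate marked 0, 703 and 0 barcodes after LPS, poly(I:C) and saline. A version taking the top scores was tried, and an expected rate of 0.8% per 1000 barcodes was then used, which marked 1272, 703 and 915 (12.1%, 5.36% and 4.29% of barcodes with at least 500 genes, where that rate expects 8.39%, 10.5% and 17.1%), so saline doublets in particular may be under-marked. Code was tested on simulated counts. Python 3.11.15, numpy 2.4.6, scipy 1.17.1 and pandas 2.3.3 were used.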

Additional observations from a re-analysis of the deposited data

Results flagged for a closer look

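Alcam differed from saline in opposite directions between cell classes. After LPS it was lower in endothelial-like nuclei (0.418 of the saline level, 0.335 to 0.518) and in ependymal-like nuclei (0.507, 0.258 to 0.982), while it was higher in striatal projection-like (1.11, 1.01 to 1.21), excitatory (1.06, 1.02 to 1.10) and inhibitory neurons (1.34, 1.20 to 1.49). After poly(I:C) it was lower in endothelial-like nuclei (0.338, 0.256 to 0.439) and higher in striatal projection-like (1.20, 1.08 to 1.34) and inhibitory neurons (1.30, 1.13 to 1.49). In the 18 LPS and 44 saline endothelial-like nuclei with no mural or fibroblast marker UMI, Alcam after LPS lay nearer to the saline level. After poly(I:C) it stayed well below saline in that gate. For LPS the endothelial side of the contrast thus varied with the gate, and the ependymal-like value rests on few UMIs. With 1 library per treatment the difference between classes was not tested, and both comparisons use the same saline library. The part of gate and depth in the neuronal ratios was also not tested.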

How the results depend on the processing

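No paired analysis was possible because each treatment has 1 library, which also leaves no replicate to leave out. Of 72 recomputed whole-library member ratios 70 stayed inside their counting intervals; scaling to the median gene put Alcam at 1.05 for poly(I:C) over saline and at 1.02 for LPS over poly(I:C). Of 262 recomputed endothelial ratios 248 stayed inside theirs, a count that pools settings with largely the same nuclei. In the gate without mural or fibroblast marker UMIs only 8 ratios could be computed. Of these 1 stayed inside its interval, 6 fell outside, and 1, the Cd34 bound given below, lay on the other side of 1.

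Leaving out nuclei with a mural or fibroblast marker UMI left 18 LPS, 31 poly(I:C) and 44 saline nuclei. There LPS over saline was 4.78 for Vcam1, 3.58 for Icam2 and 0.888 for Alcam, poly(I:C) over saline was at most 1.02 for Cd34 and 0.195 for Alcam, and LPS over poly(I:C) was 3.51 for Vcam1 and 4.56 for Alcam; these sums are small and the cause was not tested. The gate from Ptprb, Adgrl4, Erg, Tek and Mecom gave LPS over saline of at least 7.15 for Sele and at least 9.71 for Ackr1, and LPS over poly(I:C) of 2.17 for Vcam1. Without Syt1 nuclei, LPS over saline was at least 7.10 for Sele and for Ackr1, LPS over poly(I:C) was at least 1.74 for Icam2, and ependymal Vcam1 was at least 2.22; bounds shrink with the number of nuclei. With no limit on neuronal UMIs, an added alternative, Alcam after poly(I:C) was 0.469 of saline. The other added alternatives left out shared barcodes or nuclei with a neutrophil marker UMI, and all endothelial ratios under them stayed inside their intervals.

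Thinning to 1000 UMIs moved the share of nuclei with Icam2 to 4.29% after LPS and, after poly(I:C), Vcam1 to 24.4% and Icam2, Sele and Cd34 to 0%. Thinning to 500 UMIs, added later, put Alcam at 22.6% after LPS, Alcam at 21.1% and Sele and Selp at 0% after poly(I:C), and Alcam at 43.8%, Icam2 at 7.91%, Cd34 at 5.37% and Vcam1 at 0% after saline.

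The number of genes past 2-fold followed the UMI minimum. At 30 UMIs over all barcodes it was 326 higher and 202 lower for LPS over saline (568 and 499 at 10), 302 and 344 for poly(I:C) over saline (495 and 754), and 288 and 168 for LPS over poly(I:C) (643 and 371). In endothelial-like nuclei it was 464 and 571 (1062 and 1379), 407 and 693 (794 and 1753), and 209 and 275 (1016 and 645) for the same comparisons. At 3 UMIs over all barcodes it was 1061 and 931, 966 higher, and 1085 and 931; in endothelial-like nuclei it was 1812 higher, 1614 higher, and 1922 and 1353. List genes past 2-fold at 30 UMIs were 3 higher for poly(I:C) over saline and 1 higher for LPS over poly(I:C) over all barcodes, and 3 lower for LPS over saline and 1 higher for LPS over poly(I:C) in endothelial-like nuclei. Of 126 neuron subtype levels 112 kept within their intervals.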
